A study of Mus musculus with 4 samples.

Results

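The transcripts of the growth hormone receptor, of insulin-like growth factor 1 (IGF1) and its receptor, and of the IGF-binding proteins were followed in young and aged mammary fat pad (MFP). The 10 genes were chosen by symbol, each matching 1 row of the 55487 genes counted: Ghr, Igf1, Igf1r and Igfbp1 to Igfbp7. Of these, 9 had enough counts to be tested and Igfbp1 had 0 counts. Growth hormone from the pituitary acts through its receptor on liver, fat and other tissues, where JAK2 and STAT5 carry the signal to genes such as Igf1 and Socs2. IGF1 in turn signals through the IGF1 receptor, a tyrosine kinase close to the insulin receptor, and is held in the extracellular fluid by the IGF-binding proteins, which extend its life, limit its access to the receptor or release it when proteases cut them. Adipose tissue is a source of IGF1 outside the liver, and in the mammary gland the growth of ducts depends on growth hormone acting on the stroma.

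RNA of whole MFP from female C57BL/6J mice was sequenced in 4 libraries after depletion of ribosomal RNA, 2 from young animals of 8 weeks and 2 from aged animals of 14 months, numbered replicate 1 and replicate 2 at each age. No tumour, treatment or engineered allele is given for either age. The labels call the samples biological replicates and do not say which fat pad was taken or whether a sample is 1 animal, so p-values measure the spread between these samples. The study's methods name another substrain, C57BL/6NCrl, for the mice it injected with melanoma cells. Adipocytes were not isolated, so a level is an average over all cells of the pad, and fewer cells of a type cannot be told apart from less RNA per cell.

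The libraries held between 68803304 and 98402403 counts. Levels are given as counts per 1000000 (CPM) of the library total after TMM scaling, and 3 counts, taken as the floor of detection, correspond to at most 0.0407 CPM (counting error only). All 6 adipocyte markers, Adipoq, Plin1, Cidec, Lipe, Lep and Fabp4, were detected in every library. Their summed levels were 5666 to 7598 CPM in aged and 4901 to 4913 CPM in young MFP. After TMM scaling all 6 were higher in both aged than in both young libraries. The margin was narrow for Cidec, Plin1 and Fabp4, with gaps of 1.002, 1.011 and 1.049 times between the nearest libraries. The order depended on scaling: as shares of the library totals, Fabp4, Plin1, Cidec and Lipe overlapped between the ages. For Lipe, aged replicate 2 had 94304 of 98402403 counts, a smaller share than the 66542 of 68803304 in young replicate 2. Other tissues also differed. The 6 skeletal muscle markers summed to 14102 and 29531 CPM in the aged and to 4190 and 6841 CPM in the young libraries. The 4 lymphocyte markers summed to 363 CPM in young replicate 1, but to 1.83 CPM in its partner, young replicate 2, and to 3.93 and 40.5 CPM in aged replicates 1 and 2.

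Igfbp2 was the member with the largest difference between the ages, being about 10 times lower in aged MFP. It encodes IGF-binding protein 2, a secreted carrier made by liver and by white fat precursors, and lies on chromosome 1 of GRCm38 (72824503 to 72852474, plus strand, ENSMUSG00000039323). It had 67 counts in aged replicate 1 and 46 in aged replicate 2, against 458 in young replicate 1 and 535 in young replicate 2. After scaling these were 0.819 and 0.517 CPM in aged and 5.59 and 7.25 CPM in young MFP. The groups did not overlap: the lower young library stood 6.82 times above the higher aged one, whereas libraries of the same age were within a factor of 2 of each other. A separation of this size in this direction was found in 18 of the 22485 genes tested, or 0.0801%, a comparison made after the values of Igfbp2 were seen.

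The mean of Igfbp2 was 0.668 ± 0.214 CPM in the aged and 6.42 ± 1.18 CPM in the young group (SD, n = 2 each), a 9.61-fold lower level with age and a log2 fold change of -3.26 (standard error, SE, 0.39). edgeR's quasi-likelihood test gave an adjusted p of 0.36, a value shared with other genes and the smallest reached, so that Igfbp2 was not called. Before adjustment its p from edgeR was 0.000965, the 43rd lowest of 22485. DESeq2, which the study's methods name for these data, called it with an adjusted p of 7.24e-12. The calls of the 2 tools therefore differ, while the size of the change does not, since DESeq2 estimated the same log2 fold change of -3.26. Fits that left out 1 library each gave values from -3.64 (without aged replicate 1) to -2.97 (without aged replicate 2).

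Cell type markers were set beside Igfbp2. The lymphocyte markers summed to 363 CPM in young replicate 1, where Igfbp2 was at 5.59 CPM, and to 1.83 CPM in young replicate 2, where it was at 7.25 CPM. Without young replicate 1 the log2 fold change of Igfbp2 was -3.44. The 6 fibroblast and adipose progenitor markers were mixed, with a summed level of 791 to 1012 CPM in aged and 1478 to 1708 CPM in young MFP. Of these, Pdgfra, Ly6a and Dcn were higher and Dpp4 and Col1a1 lower in both aged libraries, and Pi16 overlapped. The part of the lymphocyte, fibroblast and progenitor, adipocyte and muscle markers in the difference of Igfbp2 was not tested.

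Igfbp2 lies end to end with Igfbp5 on chromosome 1, the 2 genes running towards each other with 5457 bases between their annotated ends. Igfbp5 (72857932 to 72874884, minus strand, ENSMUSG00000026185) had 52280 to 130169 counts per library. Between the ages the pair did not move together. Young replicate 2 had the most Igfbp5 and young replicate 1 the least, whereas both had high Igfbp2. Within each age, the library with more Igfbp2 also had more Igfbp5, in the aged ones by 1198 against 1178 CPM. The 250 bases before the RefSeq start of each gene (GRCm38.p6) are printed 5′ to 3′ because Igfbp2 carries the largest difference among the members and Igfbp5 is its neighbour. Igfbp2 is read from chr1:72824230-72824479 on the plus strand, at the first of its RefSeq starts, and Igfbp5 from chr1:72874866-72875115 on the minus strand. Capitals mark each GC box, searched as GGGCGG on both strands.
Igfbp2: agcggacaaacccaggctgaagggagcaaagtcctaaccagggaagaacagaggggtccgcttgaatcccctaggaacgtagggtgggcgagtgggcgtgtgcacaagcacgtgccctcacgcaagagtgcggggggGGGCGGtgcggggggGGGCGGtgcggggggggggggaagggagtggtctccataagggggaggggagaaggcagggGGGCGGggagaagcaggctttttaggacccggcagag
Igfbp5: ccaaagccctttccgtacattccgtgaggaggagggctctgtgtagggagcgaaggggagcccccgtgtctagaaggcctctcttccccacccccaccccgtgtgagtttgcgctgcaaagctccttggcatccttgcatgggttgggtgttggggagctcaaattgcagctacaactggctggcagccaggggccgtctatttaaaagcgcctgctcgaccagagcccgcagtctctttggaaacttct
The printed Igfbp2 window held 3 GC boxes. This was not particular to it, as the window of Igfbp7 held 4 and those of Igf1r and the first Ghr start 2 each. The Igfbp5 window held 0, and so did the window of the other RefSeq start of Igfbp2 (chr1:72825137-72825386), where 32.7% of 32851 RefSeq promoter windows of this length hold at least 1. The share of G and C was 67.2% and 56.4% at the first and the other start of Igfbp2 and 58.8% for Igfbp5 (median of all windows 52.4%). TATAAA, searched on both strands, was in none of these windows of Igfbp2 and Igfbp5, and 12.4% of all windows hold it. All 10 members have a RefSeq start, 12 in all, and TTCNNNGAA, the palindrome that STAT5 binds, was in 0 of the 12 windows, against 7.02% of all windows. These are descriptions of the letters, not of binding.

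**Figure D1:**
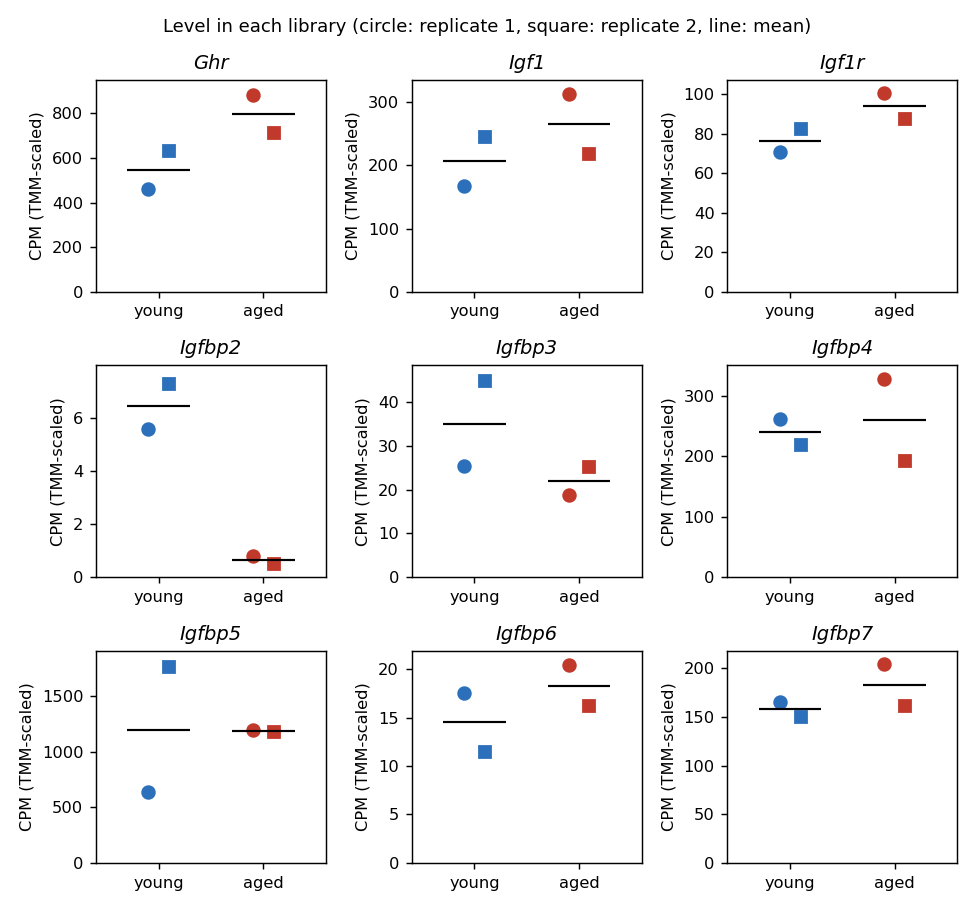
TMM-scaled CPM of 9 members in each library, with young in blue and aged in red; circles are replicate 1, squares are replicate 2, and lines are means of 2 libraries. Igfbp2 sits at 0.517 to 0.819 CPM in aged and 5.59 to 7.25 CPM in young MFP, while most other members overlap or nearly touch between the ages; Igfbp1 had 0 counts and is not drawn.

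Ghr, the receptor for growth hormone, had both aged libraries above both young ones without passing either test. It (chromosome 15, 3317760 to 3583492, minus strand, ENSMUSG00000055737) was at 884 and 710 CPM in aged replicates 1 and 2, and at 462 and 632 CPM in young replicates 1 and 2. The lower aged library was 1.12 times the higher young one. The log2 fold change was 0.54 (SE 0.26, adjusted p = 0.521 by edgeR and 0.428 by DESeq2). It was 0.33 without young replicate 1 and 0.80 without young replicate 2, and the counts do not separate the membrane receptor from its soluble form, the growth hormone binding protein.

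Igf1 (chromosome 10, 87858265 to 87937042, plus strand, ENSMUSG00000020053), the ligand, overlapped between the ages. It was at 312 and 218 CPM in aged replicates 1 and 2, and at 168 and 245 CPM in young replicates 1 and 2. The mean of 265 ± 66.8 CPM in the aged and 206 ± 54.1 CPM in the young group (SD, n = 2 each) gave a log2 fold change of 0.36 (SE 0.29, adjusted p = 0.624 by edgeR). Aged replicate 1 and young replicate 1 carried much of this distance, since it was 0.07 without the former and 0.11 without the latter. Igf1os, an antisense gene, overlaps the span of Igf1 but shares no exon bases with it (0 bases).

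Igf1r (chromosome 7, 67952827 to 68233668, plus strand, ENSMUSG00000005533), the tyrosine kinase receptor for IGF1, also had both aged libraries above both young ones. Its levels were 101 and 87.4 CPM in aged and 70.6 and 82.4 CPM in young MFP, with a gap of 1.06 times between the nearest libraries of the 2 ages. The log2 fold change of 0.30 (SE 0.16) had an adjusted p of 0.535 from edgeR, and ranged from 0.18 without aged replicate 1 to 0.43 without young replicate 2. The order of both receptors depended on scaling: with libraries scaled by total counts only, the ages overlapped for Ghr and for Igf1r.

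Igfbp3 (chromosome 11, 7206086 to 7213923, minus strand, ENSMUSG00000020427), the main carrier of IGF1 in blood, was the other member with lower values in both aged libraries. It was at 18.8 and 25.2 CPM in aged replicates 1 and 2, and at 25.4 and 44.7 CPM in young replicates 1 and 2. The ages were separated by a margin of 1.01 times, so the order rests on nearly equal values in aged replicate 2 and young replicate 1. The log2 fold change was -0.67 (SE 0.35, adjusted p = 0.535 by edgeR and 0.495 by DESeq2), but -0.19 without young replicate 2 and -1.02 without young replicate 1. Its neighbour Igfbp1 (7197782 to 7202546, plus strand, ENSMUSG00000020429), an insulin-regulated carrier made mainly by liver, had 0 counts in all 4 libraries, which at this depth allows up to 0.0337 to 0.0407 CPM. Of the 3 hepatocyte markers, Ttr had 0 counts throughout and Apoa2 12 to 21 counts per library. Alb, the third, was at 30.7 and 42.6 CPM in aged and 12.8 and 12.2 CPM in young MFP (log2 fold change 1.55, SE 0.23, adjusted p = 0.36 by edgeR and 1.62e-05 by DESeq2).

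Igfbp5, the most abundant binding protein transcript by count and a product of fibroblasts, muscle and mammary epithelium, differed more between the young libraries than between the ages. It was at 1198 and 1178 CPM in aged, and at 638 and 1764 CPM in young replicates 1 and 2, so the young libraries lay on either side of the aged ones. The log2 fold change was -0.02 (SE 0.54, adjusted p = 0.991 by edgeR), and it was 0.91 without young replicate 2 and -0.57 without young replicate 1. The 5 luminal epithelium markers ran in the same order in the young libraries. Their summed levels were 1347 CPM in young replicate 1 but 3334 CPM in replicate 2, against 2484 and 2179 CPM in the aged ones. This order was not particular to them. Basal epithelium markers were at 38.8 and 138 CPM and skeletal muscle markers at 4190 and 6841 CPM in young replicates 1 and 2. Smooth muscle, Schwann cell, fibroblast and macrophage markers also shared it. Adipocyte, endothelium, lymphocyte, proliferation and hepatocyte markers ran the other way. The part of any of these markers in the spread of Igfbp5 was not tested.

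Igfbp4 (chromosome 11, 99041244 to 99054392, plus strand, ENSMUSG00000017493) binds IGF1 until the protease PAPP-A cuts it. It was at 327 and 192 CPM in aged and 262 and 218 CPM in young MFP, where the aged libraries enclosed the young ones. The log2 fold change of 0.11 (SE 0.31, adjusted p = 0.891 by edgeR) was -0.33 without aged replicate 1, 0.44 without aged replicate 2 and -0.05 when libraries were scaled by total counts only. Igfbp6 (chromosome 15, 102144362 to 102149511, plus strand, ENSMUSG00000023046), which prefers IGF2 to IGF1, was at 20.4 and 16.2 CPM in aged and 17.6 and 11.5 CPM in young MFP, and the ages overlapped. Its log2 fold change was 0.34 (SE 0.29, adjusted p = 0.644 by edgeR), and 0.07 without young replicate 2. Igfbp7 (chromosome 5, 77349240 to 77408041, minus strand, ENSMUSG00000036256), a weak IGF binder of vessel walls and matrix, was at 205 and 161 CPM in aged and 165 and 151 CPM in young MFP, which gave a log2 fold change of 0.21 (SE 0.18, adjusted p = 0.631 by edgeR). The ages overlapped, and the value was 0.02 without aged replicate 1. Igfbp7 shares 85 exon bases with Polr2b on the other strand, and the strand setting of the counting is not given in the sources used here.

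**Figure D2:**
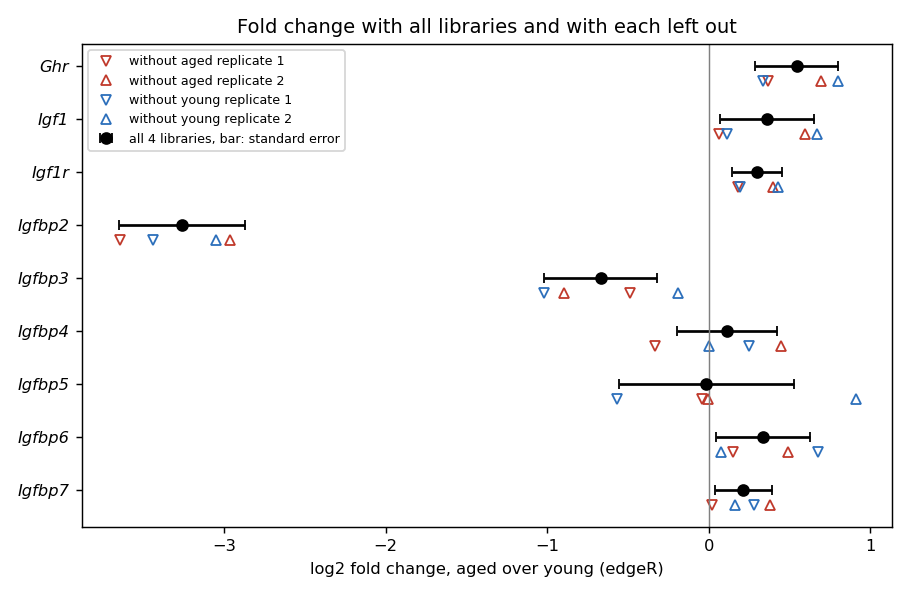
Log2 fold change, aged over young, from edgeR for 9 members, as black points with standard errors over all 4 libraries, and as triangles with 1 library left out. Igfbp2 stays between -3.64 and -2.97, whereas Igfbp4 and Igfbp5 fall on both sides of 0.

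Over the members, edgeR's test called 0 of 9 at an adjusted p under 0.05, where it called 0% of all 22485 genes. At a p under 0.05 before adjustment there was 1 member, Igfbp2, of 9, where 10.5% of all genes tested had such a p. DESeq2 called 1 member lower in aged MFP, where it called 0.692% of genes lower, and 0 members higher, where it called 3.17% of genes higher. Ghr and Igf1r, 2 of the 9, had both aged libraries above both young ones, an order that 23.3% of all genes tested showed. Igfbp2 and Igfbp3, again 2 of 9, had the opposite order, which 22.8% of genes showed. Apart from the DESeq2 call of Igfbp2, these counts of members are near those of genes at large. The median log2 fold change was 0.21 over the 9 members and -0.04 over all genes tested.

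**Figure D3:**
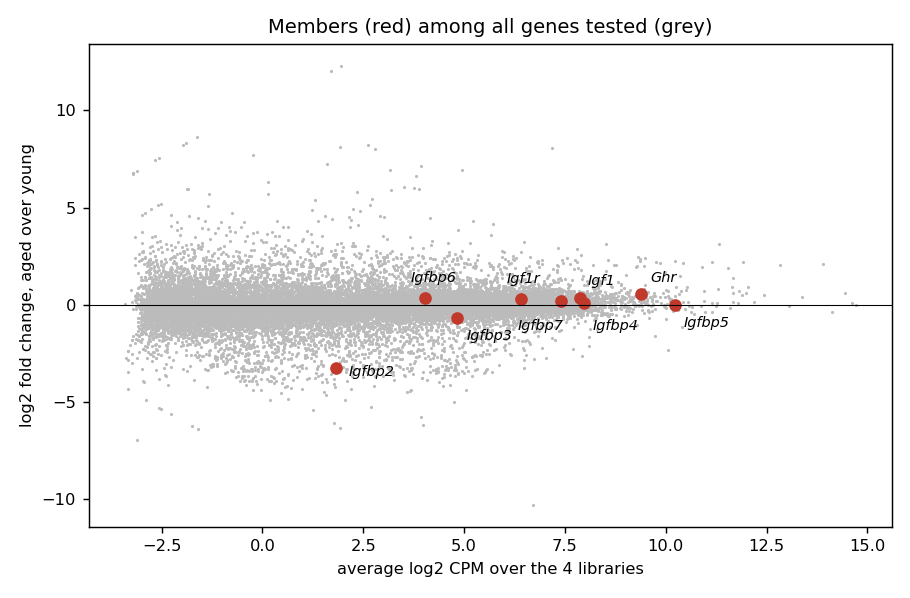
Log2 fold change from edgeR, aged over young, against the average log2 CPM over the 4 libraries, with the 22485 genes tested in grey and 9 members in red. Igfbp2, at a log2 fold change of -3.26, is the lowest of the members, and the other 8 lie between -0.67 and 0.54.

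Levels of different genes were compared per length, as CPM per kilobase of annotated exon. By this length Igfbp5 and Igfbp7 held the first 2 places in every library, Ghr and Igfbp4 the next 2, and Igf1 the fifth. The places depend on the length taken. Ghr has 9053 bases of annotated exon but 4175 in its longest transcript, whereas Igfbp5 has 6006 by either. By its longest transcript Ghr would stand higher against Igfbp5 and Igfbp7. Igfbp5 averaged 198 ± 2.43 CPM per kilobase (SD, n = 2) in aged and 200 ± 133 (SD, n = 2) in young MFP, and Igfbp7 152 ± 25.4 and 131 ± 8.64 in the same groups. These neighbours were not ordered beyond their spread, as Igfbp7 was the higher in young replicate 1. Ghr, at 88.1 ± 13.6 in aged and 60.4 ± 13.3 in young MFP, and Igfbp4, at 58.8 ± 21.6 and 54.4 ± 6.97, also changed places in that library. Igf1 followed with 26.7 ± 6.74 in aged and 20.8 ± 5.47 CPM per kilobase in young MFP. Then came Igfbp6 and Igfbp3, which changed places in young replicate 2, and then Igf1r with 5.60 ± 0.563 in aged and 4.55 ± 0.497 in young MFP. Igfbp2 was below Igf1r in all 4 libraries, at 0.362 ± 0.116 in aged and 3.47 ± 0.637 in young MFP.

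The summed level of the IGF-binding proteins was made up mostly of Igfbp5 and Igfbp7. Igfbp5 made up 42.6% and 49.5% of it in aged, and 32.3% and 59.2% in young replicates 1 and 2. Igfbp7 gave 36.2% and 33.7% in aged and 41.5% and 25.1% in young MFP, and Igfbp4 between 9.97% and 18.0%. The share of Igfbp2 was 0.0948% and 0.0706% in aged, against 0.919% and 0.791% in young MFP, so even in young tissue it was a minor part of the pool. Igfbp3 gave 1.29% and 2.03% in aged and 2.46% and 2.88% in young MFP. Shares are taken within a library and do not depend on how libraries are scaled.

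**Figure D4:**
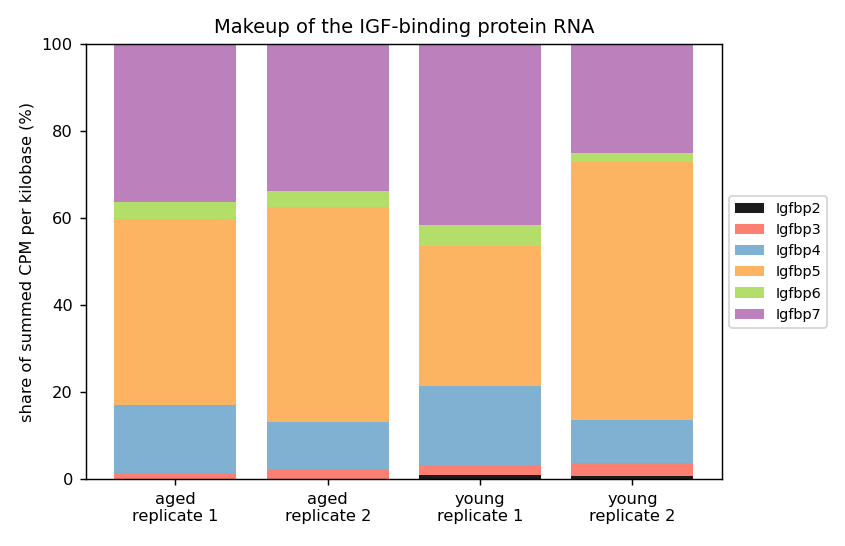
Share of each gene in the summed CPM per kilobase of the IGF-binding proteins, in %, 1 bar per library. Igfbp5 and Igfbp7 fill most of each bar, and the black segment of Igfbp2, 0.791% to 0.919% in the young libraries, is too thin to see in the aged ones.

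Set against Igf1, the summed binding protein level was 14.8 and 18.0 times that of Igf1 in aged and 19.4 and 20.1 times in young MFP. The log2 ratio of Igf1 to the sum was -4.03 ± 0.20 (SD, n = 2) in aged and -4.30 ± 0.04 (SD, n = 2) in young MFP, a difference of 0.27. It was 0.13 without aged replicate 1 and 0.41 without aged replicate 2. Both aged libraries had the higher ratio, and the exact two-sided permutation test over the 4 libraries gave p = 0.333, the smallest it can give with 2 against 2. Without Igfbp5 in the sum the difference was 0.24, but the ages then overlapped (exact permutation p = 1). With the length of the longest annotated transcript, the mean log2 ratio was -3.58 in aged and -3.86 in young MFP. The excess of binding protein RNA over Igf1 was smaller by that length, and the difference between the ages was 0.28. The sum counts transcripts and takes no account of how strongly each protein binds.

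The rest of the pathway was followed in 51 further genes, of which 43 had enough counts to be tested. edgeR called 0 of them, and DESeq2 called 3, all higher in aged MFP (3.17% of all genes): Mmp3, Ccn2 and Ccn5. In edgeR 8 had a p under 0.05 before adjustment, 6 of them higher and 2 lower, where 10.5% of all genes tested had such a p, 1627 of them higher and 744 lower. The median log2 fold change was 0.28 over the 43 genes, with 31 positive and 12 negative, beside a median of -0.04 over all genes tested. Scaling by total counts only moved the median of all genes by -0.18. The signs of small values in the lists below therefore depend on scaling.

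Growth hormone signalling genes did not move in 1 direction, with 5 of the 9 tested positive, 4 negative and a median of 0.01. The largest differences were in the feedback inhibitors of cytokine receptors. Socs1 was at 12.4 CPM in young replicate 1 and between 2.48 and 3.01 CPM in the other 3 libraries, a log2 fold change of -1.44 (SE 0.81, adjusted p = 0.545 by edgeR). The library that stands apart is the one richest in lymphocyte markers, and their part in Socs1 was not tested. Socs3 was at 17.2 and 15.3 CPM in aged and 21.4 and 31.7 CPM in young MFP, without overlap, and its log2 fold change was -0.71 (SE 0.26, adjusted p = 0.474 by edgeR). Socs2, a target of STAT5 that restrains growth hormone signalling, was singled out after its values were seen. It was at 62.7 and 45.04 CPM in aged and 36.0 and 39.8 CPM in young MFP, which gave a log2 fold change of 0.51 (SE 0.22, adjusted p = 0.501 by edgeR). After TMM scaling the ages did not overlap, with a gap of 1.13 times, but by library totals they did. Aged replicate 2 had 4011 of 98402403 counts, a smaller share than the 2934 of 68803304 in young replicate 2. Cish, in the same list, overlapped, with 103 and 51.7 CPM in aged and 39.1 and 88.2 CPM in young MFP.

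Of the other ligands and receptors, 4 of 6 were tested, with a median of 0.01, and Ins1 and Ins2 had 0 counts. Insrr, an orphan receptor of the insulin receptor family, was at 0.942 and 1.22 CPM in aged and 3.71 and 0.325 CPM in young MFP, with overlap (log2 fold change -0.90, SE 1.15). Igf2r, which carries IGF2 to the lysosome, was at 250.1 and 217 CPM in aged and 189 and 209.7 CPM in young MFP, which gave a log2 fold change of 0.23 (SE 0.16, adjusted p = 0.58 by edgeR). Among the 14 receptor substrates and signalling genes, 12 were positive, with a median of 0.26 and 0 called by either tool. Grb14, an adaptor that inhibits the insulin receptor, was at 22.8 and 12.7 CPM in aged and 6.88 and 11.4 CPM in young MFP, which gave a log2 fold change of 0.96 (SE 0.43, adjusted p = 0.508 by edgeR). Gab1, a docking protein, overlapped, with 96.9 and 73.0 CPM in aged and 40.3 and 77.2 CPM in young MFP.

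Proteases and partners of the binding proteins included the gene with the highest log2 fold change in the pathway lists. Of the 8 tested, 6 were positive and the median was 0.77. Mmp3, a matrix protease that can cut IGF-binding proteins, was at 18.1 and 20.6 CPM in aged and 4.05 and 7.49 CPM in young MFP, and the ages did not overlap. Its log2 fold change was 1.75 (SE 0.37, adjusted p = 0.385 by edgeR and 0.00154 by DESeq2). Htra1, a serine protease known to cut IGFBP5, was at 184 and 106 CPM in aged and 76.2 and 61.0 CPM in young MFP, which gave a log2 fold change of 1.08 (SE 0.32, adjusted p = 0.433 by edgeR and 0.096 by DESeq2).

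The remaining list held proteins that share the IGFBP domain at their start but are not carriers of IGF1 in the usual sense. Of 8 tested, 6 were positive and the median was 0.68. Ccn2, a matrix growth factor, was at 30.0 and 53.7 CPM in aged and 8.72 and 18.3 CPM in young MFP, which gave a log2 fold change of 1.63 (SE 0.50, adjusted p = 0.445 by edgeR and 0.0498 by DESeq2). Ccn5 was at 24.8 and 25.5 CPM in aged and 8.61 and 12.8 CPM in young MFP, and the ages did not overlap. Its log2 fold change was 1.23 (SE 0.26, adjusted p = 0.385 by edgeR and 0.00643 by DESeq2). The skeletal muscle markers and, after TMM scaling only, the full set of adipocyte markers were likewise higher in both aged libraries, some adipocyte markers by narrow margins. Their part in the values of Mmp3, Htra1, Ccn2 and Ccn5 was not tested.

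**Figure D5:**
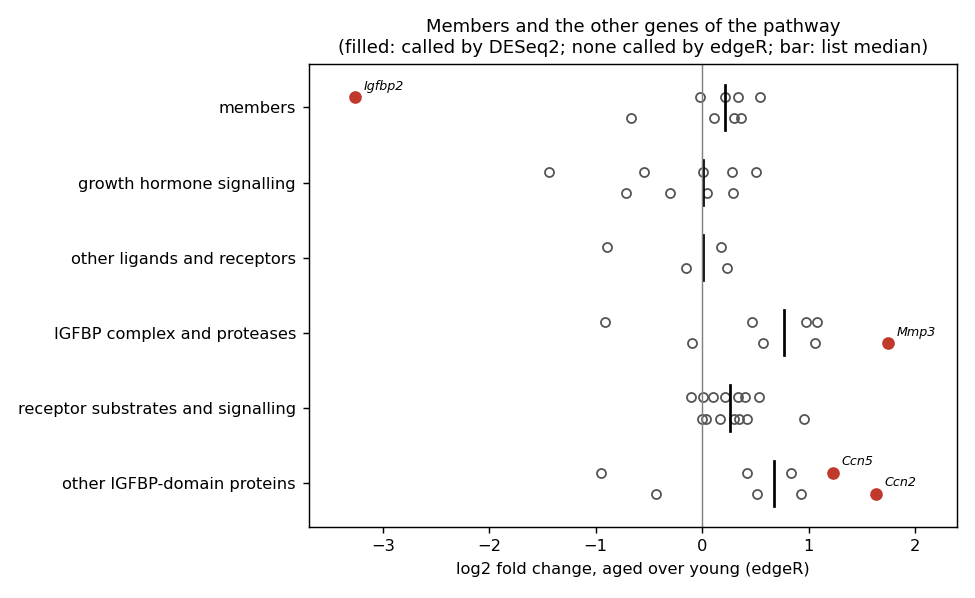
Log2 fold change from edgeR, aged over young, of the members and of 43 other pathway genes, 1 point per gene, with a black bar at each list's median. Filled points, Igfbp2 below 0 and Mmp3, Ccn2 and Ccn5 above it, are called by DESeq2, and none is called by edgeR.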

How the data were processed

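Total RNA of whole MFP was sequenced in 2 aged and 2 young samples with a strand-keeping kit. The deposited values are the authors' whole read counts for each gene, with no scaling or filter and without pooling samples. The submitters' processing notes name featureCounts, R 3.6.1 and the build GRCm38 (also hg38, with no role given); the aligner, annotation release and strand setting are not given in the sources used here. Multi-mapped or overlapping reads may therefore be counted in ways that cannot be checked.

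Groups and replicate numbers were taken from the sample titles. In R 4.3.3, filterByExpr kept 22485 genes, TMM set the library sizes, and edgeR 4.0.16 (glmQLFit, glmQLFTest) compared the ages with no covariate; a call needs an adjusted p (Benjamini-Hochberg, over every gene tested) under 0.05. The standard error is the log2 fold change divided by the square root of F. DESeq2 1.42.0, other scalings and filters, robust dispersion, a replicate block and leaving out each library were alternatives, and a crossed block was added after seeing the data. Code was tested on simulated data. With 2 samples against 2, adjusted p-values rest on the spread pooled across genes. The members and lists were chosen with earlier results of these data known.

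Named were all members, the 2 largest absolute log2 fold changes in each other pathway list, and genes called by either tool. Socs2, Cish, Gh, Adam28 and the low-count genes beside the last 2, and single marker genes, were named outside this rule after their values were seen. Coordinates and exon lengths are from GENCODE M21 (GRCm38), promoter windows from RefSeq (GRCm38.p6). Library totals of 68803304 to 98402403 counts put 3 counts at 0.0337 to 0.0407 CPM.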

Additional observations from a re-analysis of the deposited data

How the results depend on the processing

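The log2 fold changes of 7 of the 9 members tested, all but Igfbp4 and Igfbp5, kept their direction under all 13 alternatives. DESeq2 changed the number of calls most, to 865 genes, 1 member (Igfbp2) and 3 other pathway genes, against 0 of each with edgeR, and every other alternative called 0 genes. The adjusted p of Igfbp2 ranged from 0.0627 (without young replicate 2) to 0.976 (without aged replicate 1) among the edgeR alternatives. Scaling by total counts only moved the median of all genes by -0.18, and Igfbp4 to -0.053. With each library left out in turn, where the lone sample of an age is assumed to vary like the others, Igfbp4 ranged from -0.33 to 0.44 and Igfbp5 from -0.57 to 0.91. With the replicate number as a block (replicate block), 0 members were called, Igfbp2 was at -3.28 and Igfbp5 turned to 0.16. The same-numbered samples deviated in opposite ways across genes (correlation -0.48), and a block with the numbers crossed, chosen once the data had been seen, called 0 members and 0 genes and gave Igfbp5 0.16. The causes of these shifts were not tested. With 2 samples at each age, differences of the size seen for Ghr or Igf1r passed no test that was run.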

Other observations

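Of the pathway genes with too few counts to test, Gh, which encodes growth hormone itself, had 19 counts in young replicate 1, 1 in aged replicate 2 and 0 in the other libraries. Adam28, a protease that can cut IGFBP3, had 90 counts in aged replicate 1 and between 1 and 6 in the others. Igfbpl1 had 1 to 3 counts per library, and Ghrhr had 0 in all 4. Gh and Adam28 were singled out after their counts were seen, and each rests on a single library.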
